A study of Mus musculus with 30 samples.

Results

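The transcripts described here were 10 genes of the cellular answer to misfolded protein and amino acid shortage, namely the heat shock genes Hspa1a, Hspa1b, Dnajb1 and Hsph1, the endoplasmic reticulum (ER) chaperones Hspa5 and Hsp90b1, and the stress-induced genes Ddit3, Trib3, Asns and Chac1. They were taken by gene symbol from the count tables of aorta and kidney, each of which lists 41128 genes, and all 10 were found in both. Of the 10, 9 had enough reads to be tested in the aorta and 10 in the kidney, with Chac1 left out of the aortic tests at 93 counts summed over 14 aortas. Male mice without the epidermal growth factor receptor in vascular smooth muscle (KO, Egfr flox/flox with tamoxifen-inducible Smmhc-Cre) were compared with mice that carried the same Cre but no floxed Egfr (WT). Both genotypes received tamoxifen, were labelled as of C57Bl6J background and were fed a high-fat diet (HFD) or a standard-fat diet (SFD) for 18 weeks from the age of 6 weeks. The Smmhc promoter drives Cre in smooth muscle, so most kidney cells kept their receptor in both genotypes. Aortas were available from 3 WT-SFD, 4 WT-HFD, 3 KO-SFD and 4 KO-HFD mice and kidneys from 4 mice of each group. Mice 1309 (WT-SFD), 1319 (KO-SFD) and 1504 (KO-HFD) gave both tissues.

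Cells that meet heat or other protein-damaging conditions activate heat shock factor 1, which induces cytosolic chaperones such as the inducible HSP70 proteins and their partners. Misfolded protein in the ER activates the sensors IRE1, PERK and ATF6, which raise ER chaperones and slow translation. Phosphorylation of the translation factor eIF2alpha by PERK or by other kinases, including GCN2 when amino acids are scarce, favours translation of ATF4, which induces Ddit3, Trib3, Asns and Chac1.

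In brief, 2 kidneys of the KO-SFD group carried high levels of all 4 ATF4-linked genes, and Trib3 and Asns were lower in KO kidneys after HFD than after SFD. Neither was called without these 2 kidneys, nor in several other fits given with the result. In the aorta, Asns was lower after HFD when both genotypes were averaged, and its level was high in the aortas rich in fat-cell markers, with no call once their level was a covariate. The fit with that covariate called 0.00676% of all genes, against 3.79% without it. None of the 6 chaperone members was called in any comparison when all mice were fitted without a covariate. Calls of aortic Hspa1a and Hspa1b without 1 mouse, and of renal Hspa5 and Hsp90b1 with 1 covariate, are given with those genes, beside the fits in which their differences were smaller.

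The regulatory sequences in front of these genes are shown to let the members be compared at the level of sequence, for the near-identical HSP70 pair and for the members that hold a known stress response element. Sequences are the 250 bases before the RefSeq transcription start, taken from RefSeq tables of build GRCm38.p6, which held an entry for all 10 members. They are written 5′ to 3′ on the strand of the gene. The neighbours Hspa1a (chr17:34972157-34972406, minus strand) and Hspa1b (chr17:34959239-34959488, minus strand) have the same base at 247 of 250 positions. The capitals mark the 3 positions that differ, C44T, T47C and T249G, counted from 1 at the 5′ end with the base of Hspa1a first.
Hspa1a: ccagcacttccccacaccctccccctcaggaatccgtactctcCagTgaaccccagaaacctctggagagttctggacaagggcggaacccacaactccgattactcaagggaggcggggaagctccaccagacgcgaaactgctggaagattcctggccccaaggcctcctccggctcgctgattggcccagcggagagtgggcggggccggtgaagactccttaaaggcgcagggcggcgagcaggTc
Hspa1b: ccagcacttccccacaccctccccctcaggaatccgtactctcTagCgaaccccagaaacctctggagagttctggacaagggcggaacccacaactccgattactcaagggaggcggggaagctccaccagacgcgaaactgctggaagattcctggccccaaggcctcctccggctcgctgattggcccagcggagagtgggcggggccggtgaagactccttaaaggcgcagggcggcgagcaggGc

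The ER stress response element was searched on both strands as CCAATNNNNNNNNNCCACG, in which N is any base. It occurred in 0.113% of all 32851 promoters of this length and in 2 members, the ER chaperones Hspa5 (chr2:34771840-34772089, plus strand) and Hsp90b1 (chr10:86705445-86705694, minus strand). The capitals mark it, 65 bases before the start of Hspa5 and 212 and 107 bases before that of Hsp90b1, where the nearer match lies on the other strand.
Hspa5: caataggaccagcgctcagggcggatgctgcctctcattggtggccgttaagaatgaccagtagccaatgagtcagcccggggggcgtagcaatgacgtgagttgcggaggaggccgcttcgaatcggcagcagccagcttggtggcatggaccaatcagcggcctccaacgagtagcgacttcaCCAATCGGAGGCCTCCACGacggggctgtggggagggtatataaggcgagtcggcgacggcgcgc
Hsp90b1: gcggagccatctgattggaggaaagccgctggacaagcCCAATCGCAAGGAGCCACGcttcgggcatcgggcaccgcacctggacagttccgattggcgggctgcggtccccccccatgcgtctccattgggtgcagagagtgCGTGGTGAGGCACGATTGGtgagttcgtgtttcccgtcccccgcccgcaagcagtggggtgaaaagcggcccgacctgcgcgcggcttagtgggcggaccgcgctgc

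The C/EBP-ATF response element, to which ATF4 binds together with C/EBP proteins, was searched on both strands as TGATGNAA. It occurred in 3.45% of all promoters and in 2 members, Asns (chr6:7693210-7693459, minus strand) at 23 bases and Chac1 (chr2:119350992-119351241, plus strand) at 193 bases before the start, where capitals mark it.
Asns: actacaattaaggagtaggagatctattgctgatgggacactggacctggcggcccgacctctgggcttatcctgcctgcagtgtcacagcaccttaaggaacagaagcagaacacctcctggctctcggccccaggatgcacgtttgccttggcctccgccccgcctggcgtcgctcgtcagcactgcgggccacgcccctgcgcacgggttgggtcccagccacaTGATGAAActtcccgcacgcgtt
Chac1: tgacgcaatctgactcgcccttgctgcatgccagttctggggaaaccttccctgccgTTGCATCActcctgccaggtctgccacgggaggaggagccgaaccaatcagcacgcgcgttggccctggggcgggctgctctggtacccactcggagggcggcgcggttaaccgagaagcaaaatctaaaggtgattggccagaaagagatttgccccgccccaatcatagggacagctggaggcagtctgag

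The heat shock element, searched on both strands as GAANNTTCNNGAA, occurred in 0.466% of all promoters and in 0 of 10 members. These matches describe letters in the sequence. A missing match says only that these letters were not in the window.

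Total counts ranged from 6403699 to 13052870 in the aortas and from 16354880 to 28331314 in the kidneys. Levels are given as normalised read counts (FPM), a CPM value relative to the size of each library after scaling by the trimmed mean of M values (TMM), separately for each tissue because the tissues were sequenced at different sites. Smooth muscle markers were abundant in every aorta, with Acta2 or Myh11 the highest and a summed level of 10000 to 18030 FPM, and proximal tubule markers in every kidney, with Kap the highest and a sum of 20410 to 39500 FPM. The smooth muscle marker Cnn1 and the endothelial marker Cdh5 were listed at 0 in every library and not analysed here. Aortic Egfr was 46.6, 39.4 and 54.2 FPM in WT-SFD, 64.95, 56.9, 51.1 and 56.9 in WT-HFD, 26.7, 35.45 and 27.95 in KO-SFD and 27.45, 40.5, 39.6 and 33.3 in KO-HFD mice. Every KO aorta was below every WT aorta fed the same diet, with a log2 difference of −0.67 ± 0.11 (SE) averaged over diets (edgeR, adjusted p = 0.0141). In the kidney Egfr differed by −0.00 between genotypes (edgeR, adjusted p = 0.999), at 36.9 to 60.8 FPM.

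Some libraries stood apart from their groups. In the aortas of WT-SFD mice 1309 and 1310 and KO-SFD mice 1319 and 1452, the 20 fat-cell markers summed to 6898, 5328, 4356 and 1619 FPM, against 486.7 to 737 FPM in the other 10 aortas, although aortas had been freed from adjacent tissue. The most abundant of them was Lpl in mice 1309, 1310 and 1319 and Plin4 in mouse 1452. Mice 1309, 1310 and 1319 also had the lowest blood marker sums, 27.2, 13.1 and 20.6 FPM against 165.5 to 802 in the other aortas, and the lowest smooth muscle sums, 10000, 12370 and 10780 FPM against 14930 to 18030. Their mean endothelial marker levels were the highest, at 6.47, 6.55 and 6.41 log2 CPM against 5.03 to 5.86. Their endothelial sums did not stand apart, at 715.6, 917.5 and 846.6 FPM against 654.7 to 892.2. KO-SFD aorta 1319 also held plasma cell markers at 2065 FPM, mainly Ighm, against 26.8 to 61.0 FPM in the other aortas. In the kidney, KO-SFD mice 1318 and 1319 stood apart through the ATF4-linked genes themselves. KO-HFD kidney 1504 held plasma cell markers at 1812 FPM, with Igkc the most abundant, against 79.9 to 777.7 FPM in the other kidneys. The main edgeR differences of the members that rest on these libraries are also given without some of them. Correlations and DESeq2 calls are given over all libraries only.

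Compared per kilobase of annotated exon, the ER chaperones were the most abundant members in both tissues. Exons of Hsp90b1 share 415 bases with the opposite-strand gene 1810014B01Rik, and 84 and 133 bases with the same-strand genes Gm15344 and Gm25745. Exons of Ddit3 share 105 bases with another Ddit3 entry on the same strand. The part of these overlaps in the levels was not tested. Median levels in the aorta were 51.2 FPM/kb for Hsp90b1, 41.2 for Hspa5, 18.3 for Hspa1b, 16.2 for Hspa1a, 7.92 for Ddit3, 6.63 for Hsph1 and 5.81 for Dnajb1, followed by Trib3 at 0.674, Chac1 at 0.439 and Asns at 0.313. In the kidney they were 79.9 for Hspa5, 64.2 for Hsp90b1, 43.2 for Hspa1b, 26.2 for Hspa1a, 15.7 for Dnajb1, 12.9 for Hsph1, 10.5 for Ddit3, 1.58 for Asns, 1.14 for Chac1 and 0.649 for Trib3. The ranges of neighbouring members over the libraries overlapped throughout the kidney order. In the aorta they overlapped as well, except that every Hspa5 value was above every Hspa1b value and every Dnajb1 value above every Trib3 value. The spread over kidneys differed widely between members: the highest library exceeded the lowest 1.31-fold for Dnajb1, 5.01-fold for Hspa1b, 7.67-fold for Ddit3, 11.4-fold for Asns, 15.6-fold for Chac1 and 19.5-fold for Trib3.

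The clearest differences were in the ATF4-linked genes of the kidney. Ddit3 (chr10:127290774-127296288, GRCm38), which encodes the transcription factor CHOP and shares 68 exon bases with the opposite-strand gene Mars, was 14.25, 17.3, 12.9 and 12.9 FPM in WT-SFD, 18.3, 19.2, 19.99 and 13.4 in WT-HFD, 21.5, 98.6, 37.8 and 20.1 in KO-SFD (mice 1303, 1318, 1319 and 1451) and 21.6, 17.4, 17.65 and 16.8 in KO-HFD kidneys. Every KO-SFD kidney was above every WT-SFD kidney, and mouse 1318 was far above the other 3 of its group. Trib3 (chr2:152337422-152344032), a pseudokinase that binds AKT and ATF4, was 0.813, 1.82, 1.47 and 1.12 FPM in WT-SFD, 2.08, 0.816, 1.36 and 1.58 in WT-HFD, 1.397, 15.8, 8.99 and 3.49 in KO-SFD and 1.25, 1.34, 1.08 and 0.955 in KO-HFD kidneys. Every KO-SFD kidney was above every KO-HFD kidney, though the nearest values, 1.397 and 1.34 FPM, were close.

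Asns, the enzyme that makes asparagine, was 5.09, 6.84, 4.35 and 3.36 FPM in WT-SFD, 3.10, 3.31, 3.75 and 4.35 in WT-HFD, 4.29, 22.6, 24.0 and 6.71 in KO-SFD and 4.34, 3.85, 2.15 and 2.11 in KO-HFD kidneys. The KO groups overlapped through mouse 1303, whereas mice 1318 and 1319 lay above all other kidneys. Chac1, which degrades glutathione, was 1.25, 1.51, 1.44 and 1.88 FPM in WT-SFD, 1.85, 1.02, 2.33 and 1.15 in WT-HFD, 2.70, 15.9, 4.80 and 2.07 in KO-SFD and 2.71, 2.03, 1.33 and 1.36 in KO-HFD kidneys. Every KO-SFD kidney was above every WT-SFD kidney, and mouse 1318 was highest for Chac1, as for Ddit3 and Trib3.

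**Figure D1:**
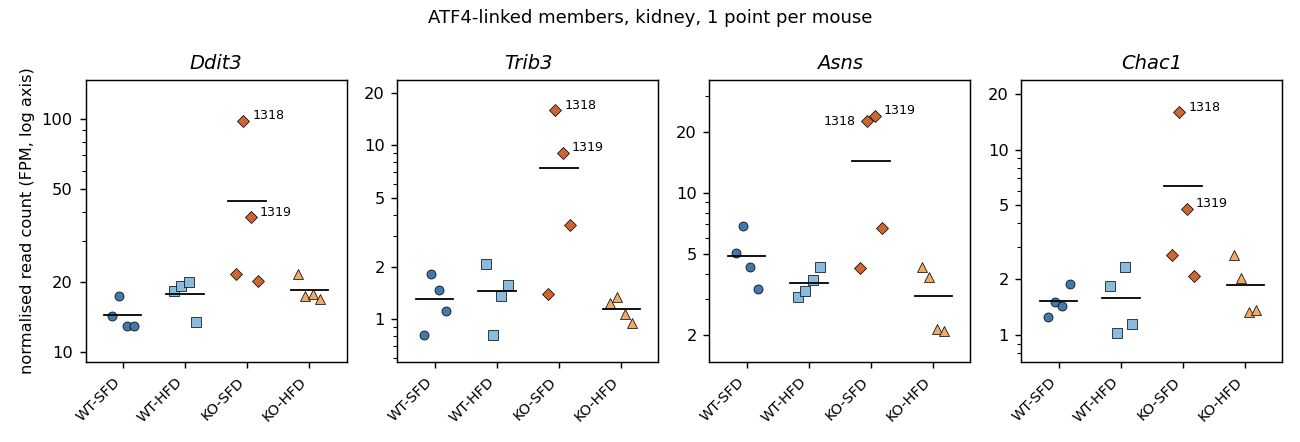
Normalised read counts (FPM, log axis) of Ddit3, Trib3, Asns and Chac1 in 16 kidneys, with 1 point per mouse and a line at each group mean. KO-SFD mice 1318 and 1319 are labelled and lie above every other kidney in all 4 panels.

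Within KO kidneys HFD was accompanied by lower Trib3 (log2 fold change −2.67 ± 0.545 SE, adjusted p = 0.013) and Asns (−2.20 ± 0.452, adjusted p = 0.0135) in the quasi-likelihood test of edgeR (p values adjusted after Benjamini and Hochberg). These were 2 of 10 members called, where 2.3% of 15034 genes tested were called. Ddit3 (−1.28 ± 0.368, adjusted p = 0.0886) and Chac1 (−1.77 ± 0.511, adjusted p = 0.0897) did not pass, although DESeq2 called all 4 with 4.62% of its genes. Without KO-SFD kidneys 1318 and 1319 the differences were smaller, −1.07 for Trib3 (adjusted p = 0.39) and −0.81 for Asns (adjusted p = 0.429). Leaving out 1318 alone gave −1.99 (adjusted p = 0.0538) and −1.90 (adjusted p = 0.0549). Leaving out KO-HFD kidney 1520 (−2.63 and −2.04, adjusted p = 0.05 and 0.0587) or 1558 (−2.59 and −2.05, adjusted p = 0.0565 and 0.0615) also ended both calls, with fold changes close to those of all kidneys. So did a fit of the KO groups alone (adjusted p = 0.0767 and 0.0902) and the immediate early gene level as a covariate (0.0715 and 0.0677). In whole-tissue RNA, fewer cells of a type and less RNA per cell cannot be told apart.

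Other measures of kidneys 1318 and 1319 were as follows. Their total counts of 19814411 and 19460215 and immediate early gene sums of 153 and 190.4 FPM lay within the range of the other kidneys. Their smooth muscle marker sums were 184.7 and 146.8 FPM, with Smtn the most abundant, and 184.7 was the highest of the 16 kidneys by a small margin over mouse 1303 of the same group, at 182.7. Cirbp, a cold-inducible RNA-binding protein gene, was 186.8 FPM in mouse 1318 and 103.2 in mouse 1319, against 72.7 to 137.2 in the others, and the clock gene sum was 1043 and 1459 FPM, against 459 to 1120. Mouse 1318 was the highest kidney for Cirbp and mouse 1319 for the clock genes. A clock covariate was the mean log2 CPM of Arntl and Npas2 less that of Dbp, Per3, Ciart and Nr1d1, not the clock gene sum. With this covariate both genes were still called in KO kidneys (Trib3 −2.56, adjusted p = 0.0162, and Asns −2.05, adjusted p = 0.0124, edgeR). The clock gene sum itself was not tested as a covariate. The endothelial marker sum was 208 FPM in mouse 1318 and 162 in mouse 1319, the lowest of all, against 179.7 to 272 in the others. The adrenal marker sum was 2.53 and 4.04 FPM, 4.04 being the highest, against 1.71 to 3.23. Sums of fat-cell, blood, fibroblast, leucocyte, plasma cell, skeletal muscle and nephron markers lay within the range of the others in both mice. Between the diets in KO kidneys 2 of 8 proximal tubule markers and 1 of 8 markers of other nephron segments rose by edgeR, with medians of 0.188 and 0.191, and 1 of 18 fat-cell markers rose and 1 fell, with a median of −0.985. The part of these markers and of Cirbp in the result was not tested.

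In WT kidneys none of the 4 genes differed detectably by diet. The log2 fold changes were 0.31 for Ddit3, 0.17 for Trib3, −0.43 for Asns and 0.06 for Chac1, and edgeR called 0 of 10 members, where 0.911% of genes were called. None had an unadjusted p under 0.05, and DESeq2 called 0 members as well, with 1.75% of genes. The difference of the diet effects between genotypes was −2.84 for Trib3, −1.59 for Ddit3, −1.77 for Asns and −1.82 for Chac1. Without mice 1318 and 1319 it was −1.23, −0.49, −0.38 and −0.41. None of these was called (adjusted p = 1 for each), and edgeR called 0% of all genes in this comparison. The 4 genes had an unadjusted p under 0.05, as had 486 genes in all, and DESeq2 called 0 members with 0.00665% of genes. Without mice 1318 and 1319, 2 of 10 members and 2.48% of all genes had an unadjusted p under 0.05 by edgeR.

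Between genotypes on SFD, which uses the same KO-SFD kidneys, Ddit3 differed by 1.64 ± 0.372 (SE) on the log2 scale (adjusted p = 0.399), Trib3 by 2.50 ± 0.536 (adjusted p = 0.398), Asns by 1.56 ± 0.437 (adjusted p = 0.453) and Chac1 by 2.06 ± 0.517 (adjusted p = 0.44). EdgeR called 0 of 10 members and 0.0133% of all genes, the 4 having an unadjusted p under 0.05. DESeq2 called Ddit3, Trib3 and Chac1, with 0.173% of its genes. In the same comparison 9 of 13 clock genes were higher and 2 lower, and 5 of 8 markers of other nephron segments were lower, at an unadjusted p under 0.05, where 8.37% of all genes reached it. Higher at this limit were also 2 of 5 smooth muscle, 2 of 18 fat-cell, 1 of 2 skeletal muscle and 1 of 6 plasma cell markers. Of the proximal tubule markers 2 of 8 were lower. The fat-cell markers had a median of 0.805, with 16 of 18 above 0. None of these passed the adjustment by edgeR, and the part of the cell-type markers in the result was not tested. A fit with the clock covariate called 0% of all genes in this comparison. Without mice 1318 and 1319 the log2 differences were 0.54 for Ddit3, 0.90 for Trib3, 0.17 for Asns and 0.65 for Chac1. In that fit 2 of 10 members and 4.46% of all genes had an unadjusted p under 0.05. On HFD no member had an unadjusted p under 0.05 and edgeR and DESeq2 called 0 of 10, with 0.00665% of genes called by either tool. Averaged over diets, edgeR called 0 of 10 members in KO against WT, beside 0.0133% of genes, and DESeq2 0 beside 0.12%. By edgeR 4 members and 5.69% of all genes had an unadjusted p under 0.05, against 1 member and 4.14% without mice 1318 and 1319.

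Averaged over genotypes, HFD was accompanied by lower renal Asns (−1.31 ± 0.317, edgeR adjusted p = 0.0245), 1 of 10 members called where 4.48% of genes were called. DESeq2 also called Trib3, with 7.33% of its genes. Asns was no longer called without mouse 1318 (adjusted p = 0.0558), 1319 (0.052), 1446 (0.0507), 1535 (0.0538), 1520 (0.0533) or 1558 (0.0571), and without both 1318 and 1319 it was −0.62 (adjusted p = 0.164). With the immediate early covariate it was −1.13 (adjusted p = 0.134).

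The log2 fold changes of all members by diet are drawn for both genotypes and tissues.

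**Figure D2:**
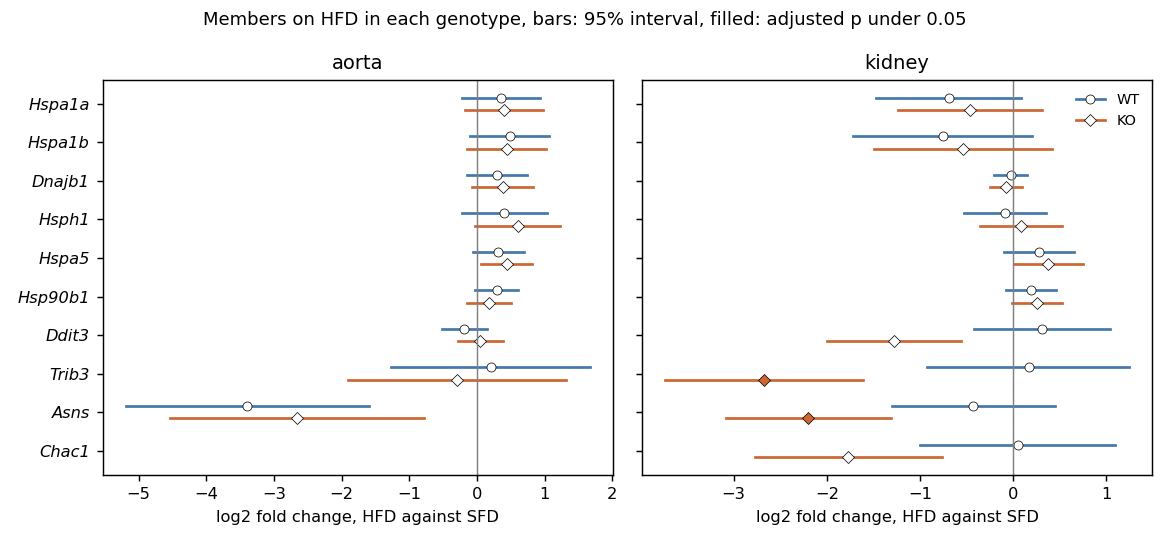
Log2 fold change of HFD against SFD for each member in WT and KO mice, aorta and kidney in separate panels, with bars for the 95% interval from edgeR. Filled symbols mark calls, which are Trib3 and Asns in KO kidneys, at −2.67 and −2.20.

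The wider set of ATF4 targets held 39 genes, of which 35 were tested. In KO kidneys 5 fell with HFD and 2 rose, where 2.3% of all genes were called, and the median log2 fold change over the set was −0.327, against −0.0041 over all genes. Beside Trib3 and Asns, the genes that fell were Eif4ebp1, a translation repressor (−1.01, adjusted p = 0.0256), Mthfd2, of mitochondrial folate metabolism (−1.94, adjusted p = 0.0271), and the transcription factor Atf5 (−1.68, adjusted p = 0.039) by edgeR. Fits of the KO groups alone and the immediate early covariate ended these 3 calls, and when 1 kidney was left out Eif4ebp1 and Mthfd2 were each called in 11 of 16 fits and Atf5 in 5, with fold changes that came nearest to 0 at −0.76, −1.48 and −1.16. The same 2 animals were high for each: Mthfd2 was 20.8 and 25.8 FPM in mice 1318 and 1319 and at most 6.39 elsewhere, Atf5 was 97.15 and 137 FPM and at most 33.2 elsewhere, and Eif4ebp1 was 75.9 and 54.7 FPM and at most 45.3 elsewhere. Without mice 1318 and 1319, edgeR called 0 of the set in this comparison, beside 0.638% of genes. The fold changes of those that fell were then closer to 0, at −0.54 for Eif4ebp1, −0.50 for Mthfd2 and −0.26 for Atf5, whereas those that rose were at 0.93 for Psat1 (adjusted p = 0.0514) and 1.06 for Sesn2 (adjusted p = 0.161).

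Another pattern was seen for Psat1, which makes phosphoserine for serine synthesis. It was 30.9, 21.4, 22.4 and 15.4 FPM in WT-SFD, 53.9, 49.4, 55.2 and 47.85 in WT-HFD, 33.35, 27.6, 14.4 and 29.5 in KO-SFD and 50.6, 65.8, 65.0 and 58.7 in KO-HFD kidneys, so that every HFD kidney was above every SFD kidney. It rose with a log2 fold change of 1.197 in WT (adjusted p = 0.009) and 1.196 in KO mice (adjusted p = 0.00526, edgeR), and it was the 1 set member called in WT. Sesn2, a stress-induced inhibitor of mTORC1 signalling, rose in KO kidneys (0.93, adjusted p = 0.0344). This call was lost in a fit of the KO groups alone (0.92, adjusted p = 0.103), with the immediate early covariate (0.97, adjusted p = 0.0749) and in 6 of 16 fits without 1 kidney (1303, 1318, 1319, 1451, 1520 or 1558), with fold changes of 0.63 to 1.08 over the 16, the lowest without 1520. Psat1 was called in KO in all 16. Over both genotypes, where 4.48% of all genes were called, 3 set members rose, Psat1 (adjusted p = 0.000118), Sesn2 (0.73, adjusted p = 0.0108) and the amino acid transporter subunit Slc3a2 (0.50, adjusted p = 0.0396), and 2 fell, Asns and Eif4ebp1 (−0.63, adjusted p = 0.0338). The 3 that rose were still called without mice 1318 and 1319, and the 2 that fell were not. With the clock covariate Sesn2 (0.59, adjusted p = 0.0608) and Slc3a2 (0.44, adjusted p = 0.103) were not called, and with the immediate early covariate neither Slc3a2 (0.56, adjusted p = 0.076) nor Eif4ebp1 (−0.54, adjusted p = 0.155). When 1 kidney was left out, Psat1 and Sesn2 were called in 16 of 16 fits, Eif4ebp1 in 8, with fold changes of −0.72 to −0.50, and Slc3a2 in 6, with fold changes of 0.44 to 0.58. In KO against WT on SFD 0 of 35 were called by edgeR, 12 had an unadjusted p under 0.05 and 34 lay above 0, where 8.37% and 50.3% of all genes did. The median was 0.247 against 0.00107 over all genes, and DESeq2 called 4 (Ddit3, Trib3, Chac1 and Mthfd2), beside 0.173% of its genes. Without mice 1318 and 1319, 6 had an unadjusted p under 0.05 and 20 lay above 0, with a median of 0.0765, against 4.46%, 44.8% and −0.0238 over all genes.

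**Figure D3:**
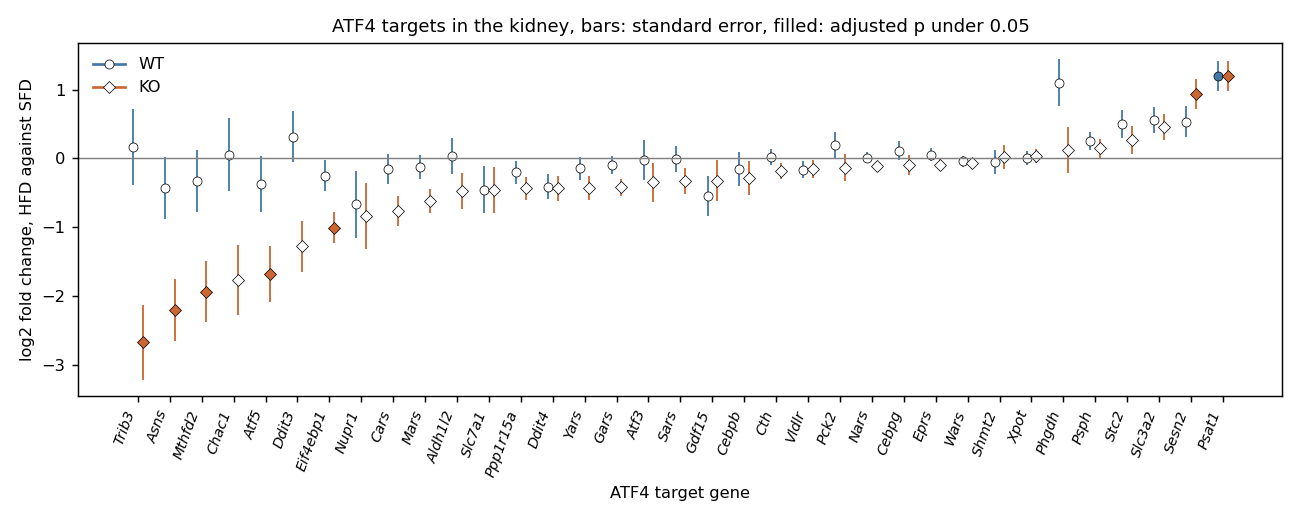
Log2 fold change of HFD against SFD in WT and KO kidneys for the tested genes of the ATF4 target set, with bars of 1 SE and filled symbols for calls. Psat1 lies at 1.197 in WT and 1.196 in KO mice, whereas Trib3, Asns, Mthfd2 and Atf5 lie at −2.67, −2.20, −1.94 and −1.68 in KO mice.

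Atf4 itself, whose protein is mostly set by translation, was 75.1, 109, 81.2 and 84.2 FPM in WT-SFD, 63.6, 76.2, 91.6 and 79.3 in WT-HFD, 85.8, 144, 121 and 84.1 in KO-SFD and 79.5, 76.65, 82.2 and 77.8 in KO-HFD kidneys. Mice 1318 and 1319 were again the highest. Every KO-HFD kidney was below every KO-SFD kidney, though the nearest values, 82.2 and 84.1 FPM, were close. The difference of −0.46 did not pass (edgeR, adjusted p = 0.173). Of 15 listed sensors and regulators, among them Hsf1, Hsf2, Ern1 (IRE1), Eif2ak3 (PERK), Atf6 and Eif2ak4 (GCN2), 12 were tested and edgeR called 0 in any of the 7 comparisons of either tissue. In KO kidneys 1 of the 12 had an unadjusted p under 0.05 with HFD and in WT kidneys 0, where 15.8% and 7.9% of all genes did. DESeq2 called 1 in the aorta, Atf6b, with diet in WT and over both genotypes, where it called 4.5% and 6.81% of all genes and edgeR gave Atf6b adjusted p values of 0.0924 and 0.0574.

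The ER chaperones were not called by diet in the kidney when edgeR was fitted to all mice without a covariate. Hspa5, which encodes the main ER HSP70 BiP, was 347.5, 332, 353 and 331.5 FPM in WT-SFD, 338, 307, 615 and 398 in WT-HFD, 342.5, 267, 230.2 and 311 in KO-SFD and 297, 430.3, 337 and 435 in KO-HFD kidneys. Groups overlapped, and WT-HFD mouse 1641 was highest. That kidney also had the highest immediate early gene sum, 404 FPM, with Dusp1 the most abundant. Hsp90b1, the ER form of HSP90, was 278, 256, 271 and 252 FPM in WT-SFD, 279, 252.5, 382 and 299.5 in WT-HFD, 245, 262, 195 and 247.5 in KO-SFD and 238, 332, 253 and 315 in KO-HFD kidneys, again with overlap and with mouse 1641 highest. Over both genotypes Hspa5 differed by 0.33 ± 0.135 (adjusted p = 0.194) and Hsp90b1 by 0.23 ± 0.0973 (adjusted p = 0.214) by edgeR. Both were among 5 of 10 members with an unadjusted p under 0.05, where 17.9% of all genes had one. With the clock covariate edgeR called both (0.49, adjusted p = 0.00928, and 0.33, adjusted p = 0.0396), beside 4.18% of genes. With the immediate early level as a covariate they were 0.14 (adjusted p = 0.757) and 0.15 (adjusted p = 0.645) by edgeR.

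Of 28 genes of ER folding and degradation, 25 were tested in the kidney. Over both genotypes 10 had an unadjusted p under 0.05, all higher after HFD, where 17.9% of all genes did in either direction, and 1 was called, near the 4.48% of all genes. It was Xbp1, the transcription factor spliced by IRE1 (0.46 ± 0.123, edgeR adjusted p = 0.0458). Xbp1 was highest in WT-HFD mouse 1641, at 271 FPM, and lowest in KO-SFD mouse 1319, at 92.9 FPM. The median of the set was 0.121, against −0.00575 over all genes. Xbp1 was no longer called with RLE scaling factors (0.45, adjusted p = 0.0523), with library totals (0.46, adjusted p = 0.0617), with the immediate early covariate (0.38, adjusted p = 0.218) or without both 1318 and 1319 (0.42, adjusted p = 0.17). When 1 kidney was left out it was called in 4 of 16 fits, those without WT-HFD mice 1613 or 1642, KO-SFD mouse 1303 or KO-HFD mouse 1558, with fold changes of 0.33 to 0.51. Without both 1318 and 1319, 6 of the 25 genes had an unadjusted p under 0.05, where 14.4% of all genes did.

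The heat shock members of the kidney varied mainly between animals. Hspa1b was 207.5, 186, 105 and 50.6 FPM in WT-SFD, 148, 55.2, 55.4 and 66.0 in WT-HFD, 234, 137, 103 and 148 in KO-SFD and 158, 177, 46.75 and 49.4 in KO-HFD kidneys. Hspa1a, the other inducible HSP70 gene, was 115.5, 108, 65.3 and 38.8 FPM in WT-SFD, 84.3, 37.1, 39.99 and 41.1 in WT-HFD, 125, 87.7, 72.2 and 83.0 in KO-SFD and 97.5, 100.3, 34.9 and 35.5 in KO-HFD kidneys. In all groups the values overlapped, and both genes were high and low in the same mice. With diet over both genotypes Hspa1b differed by −0.64 ± 0.345 (adjusted p = 0.349) and Hspa1a by −0.57 ± 0.279 (adjusted p = 0.293) by edgeR. Libraries with high Hspa1b had low proximal tubule and high endothelial marker levels (mean log2 CPM, r = −0.842 and 0.769 after removal of group means, n = 16 kidneys, which share their scaling), and the part of these in the result was not tested.

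Hsph1 (chr5:149614287-149636376), the HSP110 nucleotide exchange factor, was 138, 131, 84.6 and 84.6 FPM in WT-SFD, 105, 78.2, 124.5 and 106 in WT-HFD, 136, 67.8, 89.9 and 88.9 in KO-SFD and 97.8, 138, 87.2 and 84.1 in KO-HFD kidneys. Groups overlapped and the diet difference was 0.00 (95% interval −0.31 to 0.314). Dnajb1 (chr8:83608193-83612653), an HSP40 that feeds clients to HSP70, was the steadiest member, between 43.8 and 57.3 FPM in all 16 kidneys, with a diet difference of −0.05 (95% interval −0.172 to 0.0763). Of 28 heat shock genes 24 were tested, and over both genotypes 1 was called, near the 4.48% of all genes. It was Serpinh1, the collagen chaperone HSP47, which rose by 0.29 ± 0.071 with HFD (edgeR, adjusted p = 0.0248). It was no longer called without both 1318 and 1319 (0.25, adjusted p = 0.115), with the immediate early covariate (0.27, adjusted p = 0.105), or without 1309 (0.27, 0.0537), 1695 (0.28, 0.053), 1641 (0.27, 0.0575) or 1520 (0.27, 0.0513) alone. The median of the set was −0.0578, against −0.00575 over all genes.

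In the aorta the 6 chaperone members had higher mean levels after HFD, but none of these differences passed the test. Hspa1b was 26.8, 24.25 and 66.3 FPM in WT-SFD (mice 1309, 1310 and 1445), 52.8, 55.2, 58.3 and 51.0 in WT-HFD, 36.9, 26.55 and 47.1 in KO-SFD and 33.1, 56.1, 58.9 and 51.7 in KO-HFD mice. Hspa1a was 27.1, 24.5 and 67.3 FPM in WT-SFD, 49.0, 47.4, 51.9 and 52.6 in WT-HFD, 33.0, 26.7 and 41.6 in KO-SFD and 28.7, 49.5, 50.05 and 50.1 in KO-HFD mice. WT-SFD mouse 1445 was the highest of all aortas for both genes, while the other 2 WT-SFD aortas, which held the most fat-cell markers, were among the lowest. Over both genotypes Hspa1b differed by 0.46 ± 0.213 (adjusted p = 0.265) and Hspa1a by 0.37 ± 0.208 (adjusted p = 0.367) by edgeR. Without mouse 1445 the differences were 0.77 (adjusted p = 0.00329) and 0.68 (adjusted p = 0.00461), and within WT 1.09 (adjusted p = 0.00579) and 0.97 (adjusted p = 0.00816) by edgeR. That fit left only the fat-rich aortas 1309 and 1310 in WT-SFD and called 12.1% of all genes over both genotypes and 11.7% within WT. Immediate early gene sums were 743.5 FPM in mouse 1445 and 235.5 and 288 FPM in mice 1309 and 1310, the lowest of all aortas. The mean log2 CPM of the immediate early genes gave r = 0.609 with Hspa1b and 0.584 with Hspa1a after removal of group means (n = 14). With all mice and the immediate early level as a covariate Hspa1b differed by 0.23 and Hspa1a by 0.15, and with the fat-cell marker level by 0.08 and −0.01. The part of either in the fit without mouse 1445 was not tested.

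**Figure D4:**
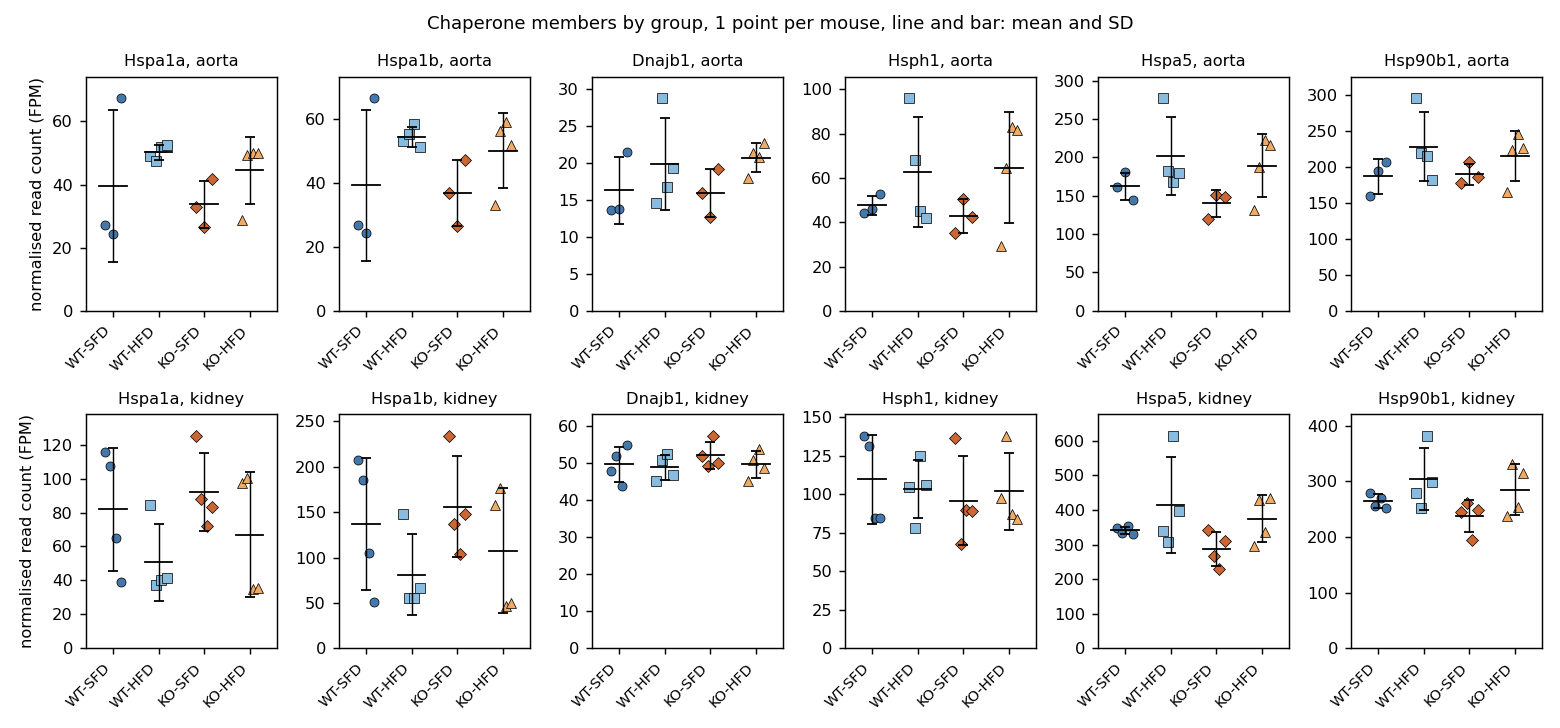
Normalised read counts (FPM, linear axes from 0) of the 6 chaperone members in aorta and kidney by group, with 1 point per mouse and a line with a bar for the group mean ± SD. The SFD and HFD groups of each genotype overlap in every panel, and WT-SFD aorta 1445 lies at 66.3 FPM for Hspa1b.

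Hsph1, Hspa5, Dnajb1 and Hsp90b1 of the aorta did not pass the diet test either, and their groups overlapped. Hsph1 was 44.1, 46.05 and 52.6 FPM in WT-SFD, 95.9, 68.0, 44.9 and 41.9 in WT-HFD, 35.2, 50.3 and 42.5 in KO-SFD and 29.4, 64.3, 83.2 and 81.6 in KO-HFD mice, a diet difference of 0.50 ± 0.227 (adjusted p = 0.254). Hspa5 was 161, 181 and 145 FPM in WT-SFD, 277, 182.5, 168 and 180 in WT-HFD, 120.3, 151.5 and 148 in KO-SFD and 131, 188, 222.5 and 216 in KO-HFD mice, a difference of 0.38 ± 0.138 (adjusted p = 0.153). In both, WT-HFD mouse 1442 was the highest aorta and KO-HFD mouse 1454 was well below the other 3 of its group. Dnajb1 lay between 12.65 and 28.8 FPM and differed by 0.34 ± 0.161 (adjusted p = 0.286), and Hsp90b1 lay between 159 and 295 FPM and differed by 0.23 ± 0.117 (adjusted p = 0.306), all by edgeR.

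The ATF4-linked members of the aorta were low. Ddit3 was between 10.2 and 16.1 FPM in all 14 aortas, with a diet difference of −0.07, and Trib3 between 0 and 3.70 FPM, with a difference of −0.05. Chac1 lay between 0.278 and 1.125 FPM. Asns was 11.03, 10.1 and 0.720 FPM in WT-SFD, 0.916, 1.103, 0.416 and 0.255 in WT-HFD, 8.02, 2.36 and 0.724 in KO-SFD and 0, 1.125, 0.798 and 0.137 in KO-HFD mice. The 4 aortas with over 2 FPM were those with high fat-cell markers. Asns was lower after HFD over both genotypes (−3.02 ± 0.662, edgeR adjusted p = 0.0257), 1 of 9 members called where 3.79% of genes were called, 514 of them lower and 47 higher. DESeq2 also called 1 member, Asns, with 6.81% of its genes. When 1 aorta was left out, edgeR called 0% to 12.1% of all genes in this comparison. With all aortas, 4 of 9 members (Hspa1b, Hsph1, Hspa5 and Asns) and 18.5% of all genes had an unadjusted p under 0.05.

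Asns and the fat-cell marker level went together over the 14 aortas, which share their scaling (r = 0.824 after removal of group means). In the same way r was 0.889 with the endothelial, −0.751 with the smooth muscle and −0.700 with the blood markers. With the fat-cell level as a covariate the diet difference of Asns was −0.52 (adjusted p = 0.947), and with the immediate early level −2.02 (adjusted p = 0.493). These 2 fits called 0.00676% and 0% of all genes, against 3.79% without a covariate. The difference of Asns was −2.38 (adjusted p = 0.124) without KO-SFD aorta 1319, −2.83 (adjusted p = 0.0863) without WT-SFD aorta 1309 and −2.87 (adjusted p = 0.077) without WT-SFD aorta 1310. In 7 other settings that left out 1 HFD aorta, the adjusted p lay between 0.0535 and 0.0629. Over all genes edgeR called 0% to 1.17% when 1 HFD aorta was left out, and 0% without 1319, 1309 or 1310. No HFD aorta was rich in fat-cell markers. The SFD aortas that were poor in them, mice 1445 and 1507 at sums of 583.9 and 535.6 FPM, had Asns of 0.720 and 0.724 FPM, inside the HFD range of 0 to 1.125. They are 1 mouse of each genotype. Whether diet or the content of any of these cell-type markers set the level of Asns was not tested.

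**Figure D5:**
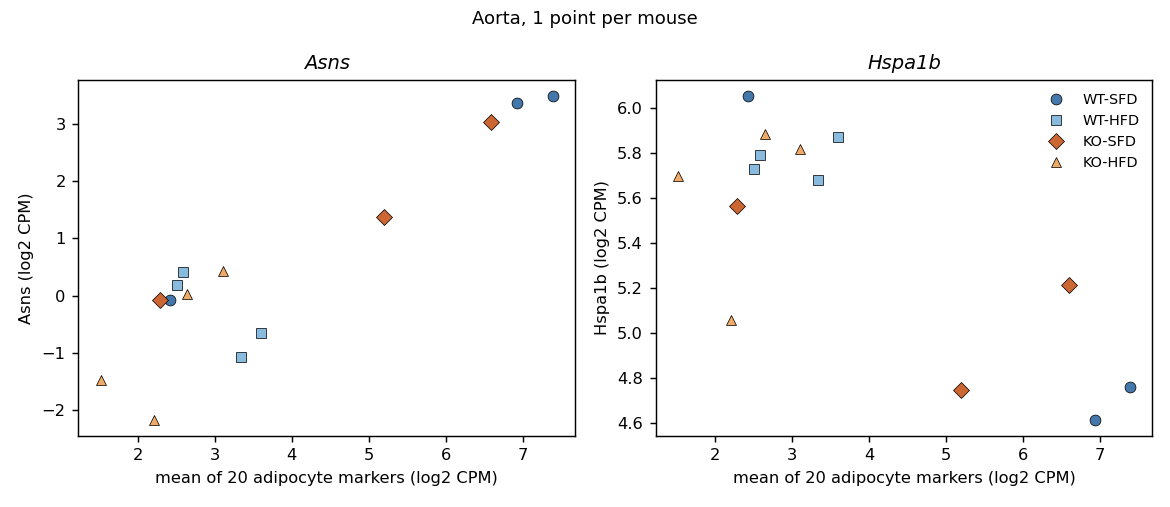
Levels of Asns and Hspa1b (log2 CPM, FPM on a log scale) against the mean of 20 fat-cell markers (log2 CPM) in 14 aortas, coloured by group, with 1 point per mouse. The 4 SFD aortas at the right, mice 1309, 1310, 1319 and 1452, hold the highest Asns, 2.36 to 11.03 FPM, and Hspa1b of 24.25 to 36.9 FPM.

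Within WT mice edgeR called 0 of 9 aortic members with diet, beside 0% of 14796 genes, 1 of them (Asns, −3.39 ± 0.916, adjusted p = 0.0835) and 2464 genes having an unadjusted p under 0.05. DESeq2 called 0 members beside 4.5% of genes. Within KO mice edgeR called 0 beside 0% of genes, with 2 members (Hspa5 and Asns) and 7.47% of genes at an unadjusted p under 0.05, and DESeq2 0 beside 0.0541%. Between genotypes 0 of 9 members were called by edgeR or DESeq2 and none had an unadjusted p under 0.05 on SFD (0.0811% of genes by edgeR, 0.257% by DESeq2), on HFD (0.0811% and 0.27%) or over both diets (0.196% and 0.372%). On SFD DESeq2 gave 2 of the 9 no adjusted p. For the difference of diet effects both tools called 0 members, edgeR beside 0% and DESeq2 beside 0.0135% of genes, again with none at an unadjusted p under 0.05.

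The wider sets of the aorta gave 1 call in all by edgeR, Asns. Of 24 heat shock genes tested, 9 had an unadjusted p under 0.05 with diet over both genotypes, 7 higher and 2 lower, where 18.5% of all genes did. In this comparison 18 of 20 fat-cell markers fell, with a median of −3.54 over the 20, and their part in the set counts was not tested. The lower heat shock genes were the mitochondrial chaperones Hspd1 (−0.53, adjusted p = 0.0908) and Hspe1 (−0.56, adjusted p = 0.0898) by edgeR. DESeq2 called both together with Hspa2, beside 6.81% of its genes. Of 25 ER genes 5 had an unadjusted p under 0.05, a share near that of all genes, and Dnajb9, an ER HSP40, was −0.45 (adjusted p = 0.0677 by edgeR) and called by DESeq2, again beside 6.81% of its genes. Medians were 0.15 for the heat shock, 0.148 for the ER and −0.0352 for the ATF4 set, against −0.00493 over all genes. Psat1, higher after HFD in kidney, was −0.99 in aorta (adjusted p = 0.0706).

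Some pairs of members varied together between animals and others did not. After removal of group means the 2 HSP70 genes gave r = 0.995 over 16 kidneys and 0.98 over 14 aortas. Their transcripts are 2967 and 2803 bases long and 47.1% of the 100-base windows of Hspa1a occur whole in Hspa1b, so that reads may be shared, and 564 exon bases of Hspa1a overlap the opposite-strand gene Gm20481. The ratio of Hspa1b to Hspa1a counts was 0.971 to 1.18 in the aortas and 1.3 to 1.87 in the kidneys, ranges that do not overlap. In the kidney Hspa5 and Hsp90b1 gave r = 0.9, Ddit3 and Chac1 0.886, Trib3 and Asns 0.825 and Ddit3 and Trib3 0.754. Ddit3, Chac1, Trib3 and Asns were highest in KO-SFD kidneys 1318 and 1319, and their r values include both. In the aorta Hsph1 gave 0.892 with Hsp90b1 and 0.879 with Hspa5, and Ddit3 gave −0.785 with Hsp90b1. Among pairs of heat shock members, r was 0.662 for Hspa1b and Hsph1 in the kidney and 0.664 for Dnajb1 and Hspa1b in the aorta. Other pairs of a class did not go together, with r = −0.487 for Dnajb1 and Hspa1b and 0.103 for Dnajb1 and Hsph1 in the kidney, and in the aorta 0.125 for Dnajb1 and Hsph1, 0.0658 for Ddit3 and Trib3 and −0.263 for Asns and Ddit3. All of these correlations are descriptions over libraries that share their scaling.

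Of all tested genes, those most like Trib3 in the kidney after removal of group means were Mthfd2 (r = 0.901), Ankrd39 (0.85), Asns (0.825), Pycr1 (0.813) and Eif4ebp1 (0.81), n = 16. Of these, Mthfd2, Asns and Eif4ebp1 are in the ATF4 set. Like Trib3, these set members were highest in KO-SFD kidneys 1318 and 1319, which the r values include. Those most like Hspa5 were Uso1 (0.913), Hsp90b1 (0.9), Ppid (0.895), Ppm1h (0.89) and Nod2 (0.887), and those most like Hsph1 were Ankrd13a (0.927), Ppapdc1b (0.885), Phf20 (0.883), Ppp1r9b (0.881) and Spidr (0.87). In the aorta (n = 14) Hspa5 was most like Hsp90ab1 (0.96), Klhl5 (0.946), Cog6 (0.935), Slc2a3 (0.924) and Prss23 (0.916), Hsph1 like Gm7816 (0.936), Rpl36al (0.935), Chrna1 (0.933), Golph3 (0.93) and Mtpn (0.929), and Trib3, near the lower limit of detection, like Hist1h3b (0.912), Casc5 (0.906), Pik3r6 (0.901), Hist1h3h (0.885) and Hist1h3d (0.88).

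Mouse 1319, a KO-SFD animal sampled in both tissues, was high for Asns in both, at 24.0 FPM in the kidney and 8.02 FPM in the aorta. Its aortic Ddit3 was 13.5 FPM, within the range of the other aortas, against 37.8 FPM in its kidney. Mouse 1309 (WT-SFD) had the highest aortic Asns, 11.03 FPM, and renal Asns of 5.09 FPM within its group. Mouse 1504 (KO-HFD) had 0.798 FPM of Asns in the aorta and 3.85 FPM in the kidney. The tables were scaled separately, so these levels stand side by side without a test.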

How the data were processed

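Deposited counts, the whole-number read counts per gene that the authors made from rRNA-depleted (RiboMinus) RNA with cutadapt, TopHat2 on GRCm38/mm10 and featureCounts, were used as they stood. The handling of multimapping reads and strand is not given in the sources used here. For each tissue 1 model was fitted over all libraries and genes kept by filterByExpr (minimum count 10) with R 4.3.3, edgeR 4.0.16 and limma 3.58.1, using TMM factors, 1 coefficient per group and quasi-likelihood tests. Calls needed an adjusted p (Benjamini-Hochberg, all tested genes) below 0.05. The SE was the absolute log2 fold change divided by the square root of the F statistic. The 95% intervals are the fold change ± 1.96 SE, a normal approximation that is narrower than the F test implies. The study's limit of 0.001, DESeq2 1.42.0 and other filters, scalings, covariates and samples were alternatives, and the scripts were tested on simulated data. Members and gene lists were chosen with earlier results of these data known. Named genes were the members, Egfr, the regulators, up to 3 called genes per list and direction or the 2 with the smallest p, and the 5 most alike to Hsph1, Hspa5 and Trib3. Mthfd2, Atf5 and others named beyond this rule, Psat1 in the aorta among them, were chosen after their values were seen. Replicates were separate mice, and no library pair agreed within sampling noise. Hspa8, Cryab, Dnaja4, Chordc1, Hyou1, Manf, Ppib, Slc7a5, Aars, Hsbp1, Mbtps1 and Mbtps2 were not analysed here.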

Additional observations from a re-analysis of the deposited data

Results flagged for a closer look

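In 4 of 60 combinations of 1 member and 1 group of 4 mice, 1 animal lay far from the other 3 by Dixon's criterion. Chance gives this in about 1 of 20 independent groups. The 60 combinations reuse the same mice for every member, so this rate does not apply to them as it stands. Flagged in the aorta were Hspa1a in KO-HFD mouse 1454, the lowest of its group at 28.7 FPM, and Hspa5 in WT-HFD mouse 1442, the highest of its group at 277 FPM. In the kidney WT-HFD mouse 1535 was the highest of its group for Hspa1a, at 84.3 FPM, and for Hspa1b, at 147.6 FPM, genes that share much of their sequence. The same kidney had the lowest proximal tubule marker sum, 20410 FPM. KO-SFD mouse 1318 did not meet the criterion for any member.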

How the results depend on the processing

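Of the counts of called members under all alternatives, 304 stayed within 1.5 times the reported count and 40 moved, and no called fold change turned its direction. A count of 0 that stayed at 0 is among the 304, and most comparisons had 0 members called. The tally is therefore no measure of how stable the calls were, which is given below by comparison. In the aorta, 0 members were called with diet in WT, against 1 without the low-count filter and 0 to 3 when 1 mouse was left out. Over both genotypes 1 was called, against 0 at an adjusted p under 0.001, 0 with the fat-cell covariate, 0 with the immediate early covariate and 0 to 3 when 1 mouse was left out. The share of all genes called was 3.79%, against 0%, 0.00676%, 0% and 0% to 12.1% in these fits. In the kidney, 2 were called with diet in KO, against 4 by DESeq2, 0 at an adjusted p under 0.001, 0 when only the groups compared were fitted, 0 with the immediate early covariate, 0 without mice 1318 and 1319 (an alternative chosen after seeing the data) and 0 to 4 when 1 mouse was left out. The share of all genes was 2.3%, against 4.62%, 0.319%, 1.57%, 1.41%, 0.638% and 1.29% to 2.65%. Between genotypes on SFD 0 were called, against 3 by DESeq2 and 0 to 1 when 1 mouse was left out. The share of all genes was 0.0133%, against 0.173% and 0% to 0.0262%. Over both genotypes 1 was called, against 2 by DESeq2, 0 at an adjusted p under 0.001, 0 with the immediate early covariate, 3 with the clock covariate, 0 without mice 1318 and 1319 and 0 to 2 when 1 mouse was left out. The share of all genes was 4.48%, against 7.33%, 0.984%, 2.93%, 4.18%, 2.61% and 3.21% to 4.73%. The causes of these moves were not tested, apart from the stricter limit. Scaling by library totals moved the median of all aortic genes by 0.113 and −0.106 with diet in WT and KO and by 0.293 between genotypes on SFD. No paired analysis was possible because the groups compared share no mouse. Depth limits Trib3, Asns and Chac1, which had few reads per library in the aorta.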
